A study of Mus musculus with 6 samples.

Results

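The genes described here encode the mitochondrial oxidation of fatty acids in liver, the steps that feed it and the ketone body enzymes next to it. They were compared between livers of mice lacking Nrf2 (labelled Nrf2 ko) and livers of wild-type mice (Nrf2 wt), all of strain C57B/SV129 and 10 weeks old. Members were chosen by name, from a list of 32 genes, as probe sets annotated to exactly 1 of those symbols. This gave 54 of the 45101 probe sets on the array and 30 genes of 18193 with a single-gene probe set. The expression of Acsl1 and Ucp2 was not analysed here. All 30 genes had a probe set bright enough to be tested, with 51 of the 54 probe sets above the filter, so no gene was lost to it.

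There were 6 arrays, 3 per genotype, each of liver RNA pooled from 3 animals. The labels name no treatment, fasting or surgery, and the series is about poor regeneration and resistance to insulin and IGF-1 in the knockout. The labels do not give the deleted part of the gene, the sex or the feeding state of the mice. Pooling hides the spread between animals, and p-values here measure the spread between pools.

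Fatty acids are activated to acyl-CoA, carried through the inner mitochondrial membrane as carnitine esters, and shortened in a repeating cycle of oxidation, hydration, oxidation and thiolysis. Electrons from the first oxidation reach ubiquinone through the electron transfer flavoprotein, and in liver much of the acetyl-CoA is turned into ketone bodies for export. The receptor PPARα, bound by fatty acids, is known to drive many of these genes in the fasted liver, while Nrf2 is known for binding antioxidant response elements at genes of detoxification.

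The labels were checked at the targeted gene first. The 3 knockout pools gave intensities of 5.74, 7.40 and 6.90 for the brighter probe set of Nfe2l2, the gene of Nrf2, against 696, 598 and 625 for the wild type, so that all 6 arrays matched their labels. A dimmer Nfe2l2 probe set did not separate the genotypes, at a log2 difference of 0.14 ± 0.22 (SE), and where either lies relative to the deletion was not analysed here. Hepatocyte markers were present as labelled, with 8 of 9 measured, all 8 above the filter, and their summed intensity was 80602 to 86337 in the knockout against 85118 to 88325 in the wild type. Summed markers of cholangiocytes, Kupffer cells, stellate cells, endothelial cells, red blood cells, adipocytes and pancreas also overlapped between the genotypes, and no marker of any list was called. The stellate cell markers Des and Rgs5 were higher at an unadjusted p under 0.05, by 1.00 and 0.50 log2, and their part in the differences below was not tested. The ratio of 3′ to 5′ actin signal, a sign of RNA quality, was 1.97 ± 0.03 for knockout arrays (SD, n = 3) against 1.86 ± 0.08 for wild-type arrays, every knockout array being above every wild-type array (exact two-sided permutation p = 0.1, the smallest possible). For Gapdh the same ratio overlapped between the genotypes. It was 0.767 ± 0.037 for knockout arrays (SD, n = 3) against 0.760 ± 0.006 for wild-type arrays (exact two-sided permutation p = 0.9). The part of RNA quality in the differences below was not tested.

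Pool 3 of each genotype stood apart at some genes, among them Angptl4 and Lpin1. The genes given here were picked after their values were seen. Angptl4, which encodes an inhibitor of lipoprotein lipase, had intensities of 625 in knockout pool 3 and 1067 in wild-type pool 3, where the other pools ranged from 82.1 to 114. Lpin1, which encodes a phosphatidate phosphatase, had 2204 and 3530 in the same pools, where the others ranged from 247 to 494. Pdk4, of the PPARα targets below, went the other way, at 78.9 and 78.5, where the others ranged from 137 to 247. Amacr, of the peroxisomal genes below, was high in the pools 3, at 2006 and 2124, where the others ranged from 301 to 399. The part of this contrast in the differences below was not tested, and a comparison without both pools 3, chosen after seeing the data, is given beside the counts.

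No gene of mitochondrial fatty acid oxidation passed the test between the genotypes, and the differences measured were small. By limma, with Benjamini-Hochberg adjustment over 22519 probe sets, 0 of 30 genes had an adjusted p under 0.05, where 0.144% of the 11102 genes tested did, and the lowest adjusted p of a member was 0.521. An unadjusted p under 0.05 was reached by 3 members, Hadha, Acadvl and Decr1, all higher in the knockout. They make up 10% of the members, and 0 members reached that level on the lower side. Of all genes 8.23% reached it, 4.08% higher and 4.15% lower. The count was 0 with median centring, where 7.84% of all genes reached that level. It was 1 without both pools 3 (Acsl5), where 9.85% did. Leaving out single pools moved the count between 1 (knockout pool 1, 8.11% of all genes) and 6 (knockout pool 2, 5.86%). At the brightest probe set of each gene, differences ran from -0.25 log2 for Ppara to 0.36 log2 for Decr1, with a median of 0.04 against 0.01 for all genes tested. A dimmer probe set of Ivd lay outside that range, at -0.88 log2. For 26 of the 30 genes the 95% interval of the difference lay within 0.5 log2 of 0 on either side, as it did for 49.5% of all genes. The exceptions were Acad10, Ivd, Decr1 and Ppara, and each of their intervals lay within 1 log2. The members were bright, at a median percentile of 93.2 among genes tested, with a median SE of 0.10 against 0.16 for all genes. Of the branched-chain and odd-chain genes described below, 14 of 15 also had intervals within 0.5 log2. The part of brightness in these counts was not tested. In liver RNA as a whole, fewer cells of a type and less RNA per cell cannot be told apart.

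**Figure D1:**
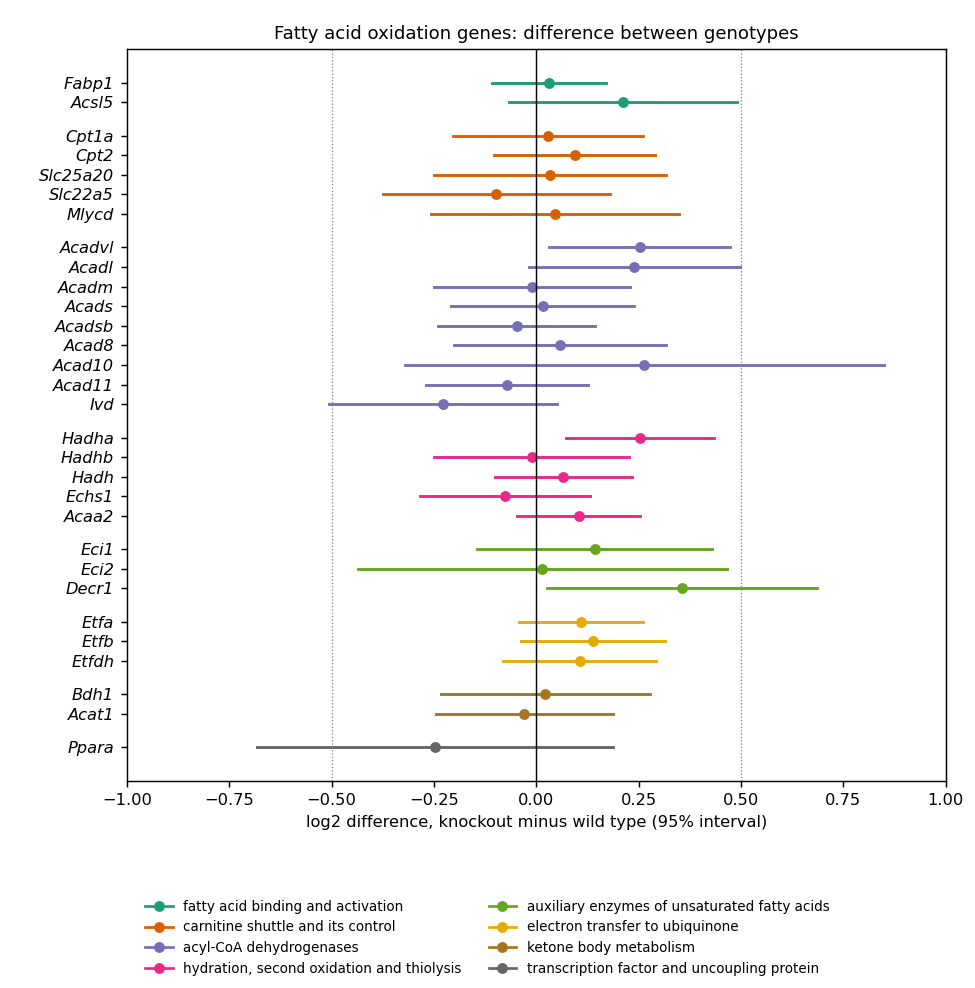
Log2 difference of each of the 30 genes, knockout minus wild type, at its brightest tested probe set, as a point with its 95% interval (limma, n = 3 pools per genotype), coloured by role; dotted lines mark 0.5 log2 either side of 0. Of the 30 intervals, 26 stay within the dotted lines, and those of Hadha, Acadvl and Decr1 exclude 0 before adjustment.

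More members were higher than lower in the knockout, but that count moved with the scaling and with the pools included. With quantile normalization 21 of 30 were higher (70%) and 9 lower, against 51.4% higher and 48.6% lower over all genes. When arrays were centred on their medians 14 were higher and 16 lower, with a member median of -0.01. The same step took the median of all genes from 0.01 to -0.03. Without knockout pool 3 the split was 16 higher and 14 lower, with a median of 0.02. Without both pools 3 it was 15 higher and 15 lower, with a median of 0.00083. That pool had the highest value of all 6 arrays for 15 of the 30 genes, and wild-type pool 3 the lowest for 11. The groups of 3 did not overlap for 6 members, Acadvl, Acadl, Hadha, Etfa, Etfb and Etfdh, all higher in the knockout. This is 20% of the members, where 13.9% of all genes were separated, 7.39% in that direction and 6.54% in the other. With median centring 3 of the 6 stayed separated, Acadvl, Hadha and Etfb. Without both pools 3, 7 members were separated on the higher side and 6 on the lower. Groups of fewer pools separate more easily. The share of all genes separated was not computed for the fit with median centring or for that without both pools 3.

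**Figure D2:**
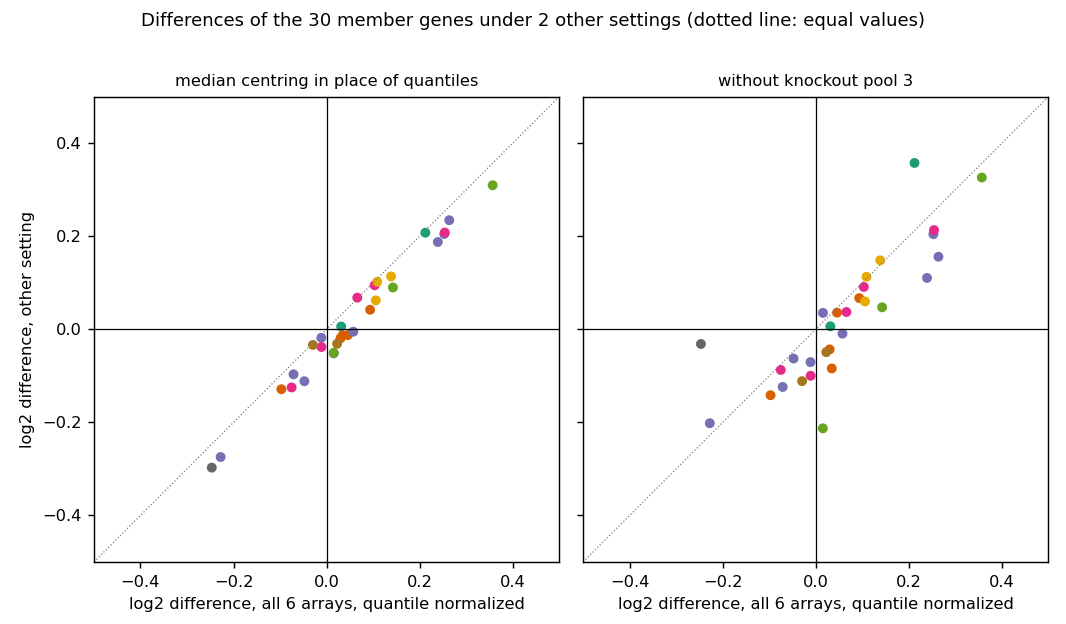
Log2 differences of the 30 genes with all arrays and quantile normalization (horizontal axis) against median centring (left) and against the fit without knockout pool 3 (right), coloured by role as in the plot of intervals. Most points lie below the dotted line of equal values, and several near 0 cross to the other sign: 14 genes are higher with median centring and 16 without the pool, against 21 on the horizontal axis.

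Among the genes that bind and activate fatty acids, neither measured member passed the test. Fabp1 encodes the liver fatty acid-binding protein, which carries fatty acids in the cytosol and is a known PPARα target. Its normalized log2 intensity was 13.81, 13.75 and 13.86 in the knockout pools against 13.81, 13.70 and 13.81 in the wild-type pools. The groups overlapped, the difference was 0.03 ± 0.06 log2 (SE), and whether so bright a probe set was saturated was not tested. Quantile normalization sets values by rank, and knockout pool 1 and wild-type pools 1 and 3 received the same value. Before it their intensities were 13617, 14772 and 15053. The unscaled group means went the other way, at 13757 in the knockout against 14733 in the wild type. Fabp1 is shown because it alone among the 29 listed genes with a RefSeq promoter window held a direct-repeat element of the kind PPARα binds, known as DR1. The stretch is the 80 bases before its annotated start, at chr6:71199799-71199878 of GRCm38.p6, plus strand, from RefSeq. The first run of capitals is that element on the opposite strand, 67 bases before the start, and the second matches the core antioxidant response element TGACNNNGC, 9 bases before the start.

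Fabp1: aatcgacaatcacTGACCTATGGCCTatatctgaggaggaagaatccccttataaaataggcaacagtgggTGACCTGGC

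Windows ran from 250 bases before to 50 after each start, and both strands were searched. The 29 genes differ from those measured: they include Ucp2, whose expression was not analysed, and lack Acaa2, Decr1 and Acat1, which had no window. The core antioxidant element was found at 2 of the 29 genes (6.90%), Fabp1 and Ucp2, where 14.0% of 27025 genes with a window held it. The DR1 motif, in a form that leaves the third-last base of each repeat free, was found at 1 of 29, against 0.451% of all genes. Its strict form, whose matches are also matches of the freer one, was found at 0 of 29, against 0.0481%. The elements TCAAGGTCA, bound by estrogen-related receptors, and CAAAGTCCA, bound by HNF4, were each found at 0 of 29, against 0.466% and 0.555%. Each match is a description of letters, and binding was not measured. Acsl5, an acyl-CoA synthetase that activates long-chain fatty acids, was at 11.88, 11.98 and 11.49 in the knockout pools against 11.65, 11.53 and 11.53 in the wild-type pools. Knockout pools 1 and 2 were above all wild-type pools and knockout pool 3 was below them. The difference was 0.21 ± 0.12 log2 (adjusted p = 0.743), and 0.36 without knockout pool 3 (adjusted p = 0.284), the lowest adjusted p of any member at its brightest probe set in any setting tried.

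The carnitine shuttle, the gate through which long-chain acyl groups enter the mitochondrion, showed small differences in both directions, and none passed. Its 5 genes lay between -0.10 and 0.09 log2, with a median of 0.03, and none had an unadjusted p under 0.05 at its brightest probe set. Cpt1a, which encodes the liver carnitine palmitoyltransferase of the outer membrane and sets the rate of entry, was at 10.11, 10.29 and 10.42 in the knockout pools against 10.26, 10.14 and 10.32 in the wild-type pools. The groups were interleaved, and the difference was 0.03 ± 0.10 log2 with a 95% interval from -0.20 to 0.26. A dimmer Cpt1a probe set gave -0.29 ± 0.13 (unadjusted p = 0.0452, adjusted p = 0.640) and the dimmest gave 0.14 ± 0.28. The suffix of both dimmer probe sets, x_at, marks probes that can also bind other transcripts. Cpt2, which re-forms acyl-CoA inside the inner membrane, was at 9.47, 9.59 and 9.61 in the knockout against 9.42, 9.50 and 9.47 in the wild type, a difference of 0.09 ± 0.09. Its dimmer x_at probe set went the other way, at -0.46 ± 0.29, and averaging both gave -0.18. Slc25a20, the carrier that exchanges acylcarnitine for carnitine, was at 0.03 ± 0.12, and Slc22a5, which takes up carnitine, at -0.10 ± 0.12. Mlycd, whose product removes malonyl-CoA, the inhibitor of Cpt1a, was at 0.05 ± 0.13. The signs of Cpt1a, Slc25a20 and Mlycd turned negative with median centring.

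The acyl-CoA dehydrogenases make the first oxidation, each on a range of chain lengths or on branched chains. Of 9 genes, 5 were higher and 4 lower, from -0.23 to 0.26 log2, with a median of 0.02. The long-chain enzymes Acadvl and Acadl were separated between the genotypes, without passing. Acad9, a related long-chain enzyme in a neighbouring list, was separated the other way at the brighter of its 2 tested probe sets. It was at 7.96, 8.05 and 7.85 in the knockout pools against 8.45, 8.11 and 8.16 in the wild-type pools. The difference was -0.29 ± 0.13 (unadjusted p = 0.0478, adjusted p = 0.644), and the other tested Acad9 probe set did not share its sign. Acadvl, for very long chains, was at 11.18, 11.13 and 11.30 in the knockout pools against 11.09, 10.97 and 10.79 in the wild-type pools. Every knockout pool was above every wild-type pool, and the difference was 0.25 ± 0.10 log2, 1.19-fold (unadjusted p = 0.0295, adjusted p = 0.608), or 0.13 without both pools 3. Acadl, for long chains, was at 10.69, 10.65 and 11.05 in the knockout against 10.55, 10.62 and 10.50 in the wild type. The groups were separated by a narrow gap with knockout pool 3 well above the rest, and the difference was 0.24 ± 0.11 (adjusted p = 0.675), or 0.11 without that pool and 0.084 without both pools 3.

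The other acyl-CoA dehydrogenases among the members did not share that pattern of separated pools at their brightest probe sets. Acadm, the medium-chain enzyme, was at 11.46, 11.64 and 11.73 in the knockout against 11.47, 11.60 and 11.80 in the wild type. The groups covered nearly the same range, and the difference was -0.01 ± 0.11, with an interval from -0.25 to 0.23. The short-chain enzyme gene Acads was at 0.02 ± 0.10, Acadsb, for short branched chains, at -0.05 ± 0.08, and Acad8, which acts in valine breakdown, at 0.06 ± 0.11. The less studied family members Acad10 and Acad11 were at 0.26 ± 0.26 and -0.07 ± 0.09. Whether Acadvl and Acadl differ from the others in response was not tested.

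Ivd, the isovaleryl-CoA dehydrogenase of leucine breakdown, gave the lowest unadjusted p of any member probe set. At its brighter probe set it was at 9.15, 9.46 and 9.23 in the knockout pools against 9.49, 9.69 and 9.35 in the wild-type pools. The groups overlapped there, with a difference of -0.23 ± 0.12 (adjusted p = 0.716). At the dimmer probe set it was at 7.73, 8.51 and 8.02 in the knockout against 8.75, 9.16 and 8.996 in the wild type. There every knockout pool was below every wild-type pool, and the difference was -0.88 ± 0.20 (unadjusted p = 0.0017, adjusted p = 0.279). The probe sets thus agreed in direction but not in size, and averaging them gave -0.56 (adjusted p = 0.390).

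Hadha and Hadhb encode the α and β subunits of the mitochondrial trifunctional protein, which hydrates, oxidises and cleaves long-chain intermediates. The genes lie head to head, with 272 bases between their annotated starts. They are shown for that shared promoter, since subunits of the complex were measured separately. The stretch is the 228 of those bases that the promoter windows of both genes cover, and the bases next to each start are not shown. It lies at chr5:30155003-30155230 of GRCm38.p6 and is given on the plus strand, that of Hadhb, from RefSeq. It is wholly in lower case because none of the searched motifs occurs in either gene's window.

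Hadha and Hadhb: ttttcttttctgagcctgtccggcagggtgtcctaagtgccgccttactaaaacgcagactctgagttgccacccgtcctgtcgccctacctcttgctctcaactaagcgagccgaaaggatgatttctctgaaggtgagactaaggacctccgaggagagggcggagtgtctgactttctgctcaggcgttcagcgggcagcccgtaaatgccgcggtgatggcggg

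Hadha had the lowest p of the 30 genes. It was at 10.26, 10.27 and 10.39 in the knockout pools against 10.04, 10.08 and 10.03 in the wild-type pools. The pools of each genotype lay close together and the groups were separated. The difference was 0.25 ± 0.08 log2, 1.19-fold, with an interval from 0.07 to 0.43 (unadjusted p = 0.0114, adjusted p = 0.521). Leaving out any single pool kept it between 0.21 and 0.28, median centring gave 0.21 (unadjusted p = 0.0732), and leaving out both pools 3 gave 0.20 (unadjusted p = 0.0775). Hadhb depended on the probe set. Its brightest, an x_at probe set, was at 11.50, 11.31 and 11.67 in the knockout against 11.44, 11.45 and 11.63 in the wild type, a difference of -0.01 ± 0.10. The next, without that suffix, was at 10.97, 10.81 and 11.10 in the knockout against 10.73, 10.84 and 10.62 in the wild type. A single pair of pools overlapped there, and the difference was 0.23 ± 0.10 (unadjusted p = 0.0464, adjusted p = 0.643). The dimmest went the other way, at -0.40 ± 0.31, and averaging all 3 gave -0.06.

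The remaining enzymes of the cycle lay between -0.08 and 0.10 log2. Hadh, which oxidises medium and short hydroxyacyl-CoA, was at 0.07 ± 0.07, and Echs1, the short-chain hydratase, at -0.08 ± 0.09. Acaa2, the thiolase that cleaves the shortened chain, was at 0.10 ± 0.07, and its other probe sets gave 0.04 and -0.01.

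All 3 auxiliary enzymes of unsaturated fatty acids were on the higher side, without passing. Decr1, the mitochondrial dienoyl-CoA reductase, was at 10.85, 10.67 and 10.85 in the knockout against 10.24, 10.78 and 10.27 in the wild type. Wild-type pool 2 lay among the knockout pools and the other wild-type pools well below. The difference was 0.36 ± 0.14 log2, 1.28-fold (unadjusted p = 0.0371, adjusted p = 0.622), 0.53 without wild-type pool 2 (adjusted p = 0.351) and 0.25 without both pools 3. A dimmer Decr1 probe set gave 0.01 ± 0.15, and averaging both gave 0.18. The enoyl-CoA isomerase genes Eci1 and Eci2, which shift double bonds into place, were at 0.14 ± 0.13 and 0.02 ± 0.20, and Eci2 turned to -0.05 with median centring.

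The 3 genes that pass electrons from the acyl-CoA dehydrogenases to ubiquinone were each higher by a similar amount after normalization, without passing. Etfa, the α subunit of the electron transfer flavoprotein, was at 11.69, 11.64 and 11.66 in the knockout pools against 11.59, 11.57 and 11.51 in the wild-type pools. Its β subunit gene Etfb was at 11.39, 11.32 and 11.32 in the knockout against 11.09, 11.25 and 11.27 in the wild type. Etfdh, the oxidoreductase that hands the electrons on, was at 10.51, 10.53 and 10.66 in the knockout against 10.51, 10.49 and 10.38 in the wild type. In each the genotypes did not overlap, for Etfdh by a gap below the second decimal. The differences were 0.11 ± 0.07, 0.14 ± 0.08 and 0.11 ± 0.08 log2, at most 1.10-fold, with unadjusted p-values of 0.137, 0.109 and 0.233 and adjusted p-values of 0.747, 0.733 and 0.809. With median centring they were 0.10, 0.11 and 0.06, and Etfb alone of the 3 stayed separated. Without both pools 3 they were 0.090, 0.18 and 0.019. Unscaled mean intensities were 3130, 2487 and 1457 in the knockout against 3149, 2479 and 1496 in the wild type. Before scaling only Etfb was thus higher in the knockout.

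**Figure D3:**
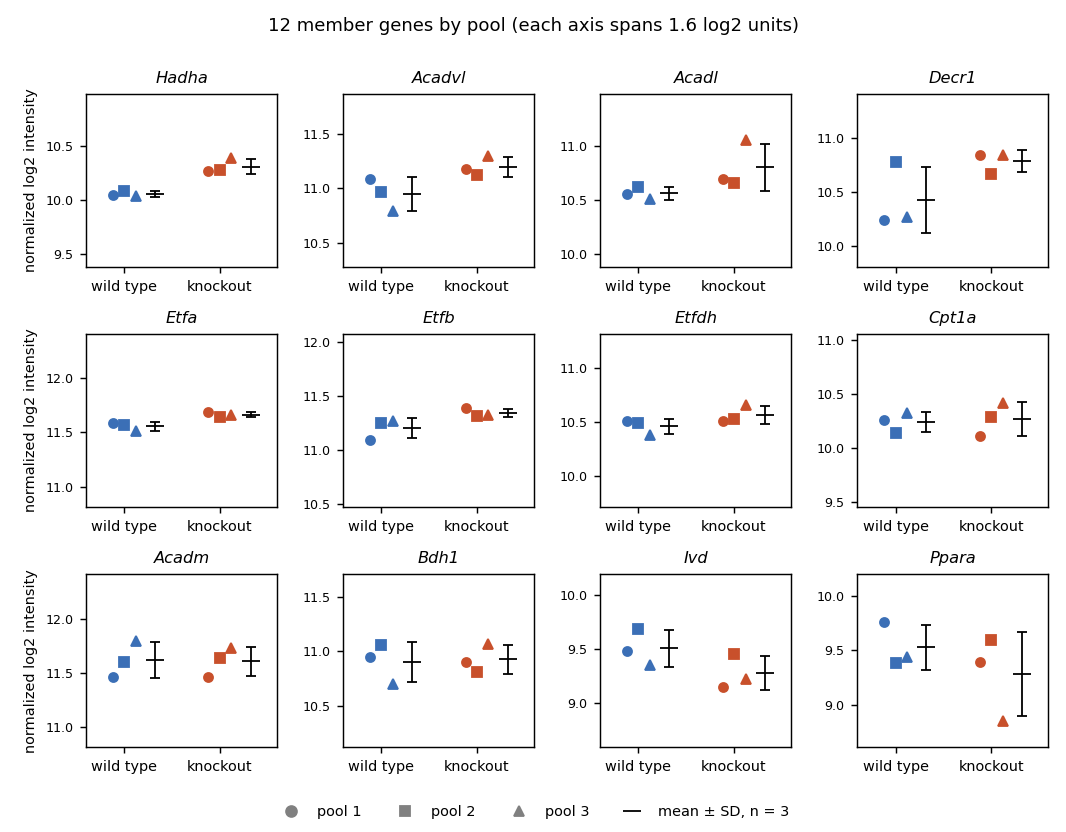
Normalized log2 intensity of 12 member genes in each pool (circle, square and triangle for pools 1, 2 and 3), with the mean and SD of 3 pools per genotype beside them. Pools of the same number were not taken as pairs. Every vertical axis spans 1.6 log2 units. Knockout pools lie above all wild-type pools for Hadha, Acadvl, Acadl, Etfa, Etfb and Etfdh, while Cpt1a, Acadm, Bdh1, Ivd, Decr1 and Ppara overlap.

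The ketone body genes among the members lay close to 0, and neither passed. Bdh1 encodes the mitochondrial enzyme that interconverts acetoacetate and β-hydroxybutyrate. It was at 10.90, 10.81 and 11.07 in the knockout pools against 10.95, 11.06 and 10.70 in the wild-type pools, a difference of 0.02 ± 0.11 with an interval from -0.23 to 0.28. Acat1, the acetoacetyl-CoA thiolase at the head of ketogenesis, was at 11.73, 11.69 and 11.96 in the knockout against 11.94, 11.72 and 11.80 in the wild type. The groups overlapped and the difference was -0.03 ± 0.09, with all 3 of its probe sets slightly on the lower side.

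Ppara, the receptor gene itself, was on the lower side without passing. It was at 9.40, 9.60 and 8.85 in the knockout against 9.77, 9.38 and 9.44 in the wild type, so knockout pool 3 was low and the other knockout pools lay within the wild-type range. The difference was -0.25 ± 0.19 log2 (adjusted p = 0.806), -0.03 without knockout pool 3 and -0.08 without both pools 3. Of its other probe sets, one was at 0.04 ± 0.15. The other, at 8.25, 8.27 and 8.23 in the knockout against 8.43, 8.67 and 8.39 in the wild type, separated the genotypes at -0.25 ± 0.11 (unadjusted p = 0.0505, adjusted p = 0.656).

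Taking every tested probe set rather than 1 per gene, 29 were on the higher side and 22 on the lower. By limma 0 passed, where 0.142% of all probe sets did. An unadjusted p under 0.05 was reached by 6 of 51 (11.8%), 4 higher and 2 lower, where 7.63% of all probe sets did, 3.75% higher and 3.88% lower. Of 15 genes with more than 1 tested probe set, 7 had all of them on the same side of 0. Probe sets of a gene measure the same RNA and are not replicates.

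**Figure D4:**
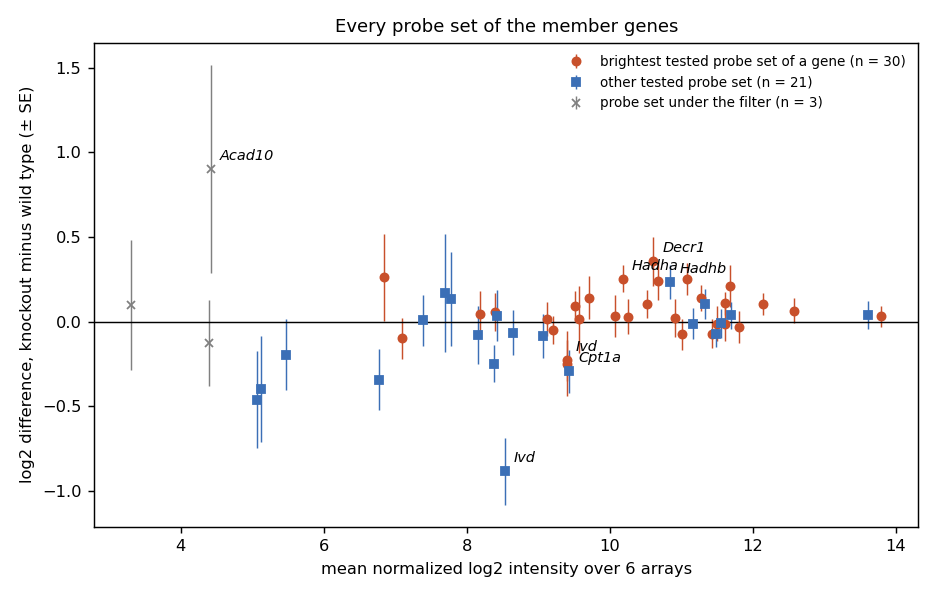
Log2 difference (± SE, limma) of all 54 probe sets of the member genes against their mean normalized log2 intensity, as the brightest tested probe set of a gene (circles), other tested probe sets (squares) and the 3 under the filter (crosses, from a fit without the filter). The dimmer Ivd probe set at -0.88 is the tested one farthest from 0, and the other 50 tested ones lie within 0.5 log2 of 0.

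Neighbouring pathways showed larger single differences, though none passed over all probe sets. Of 83 genes listed in 5 groups, 73 were tested and 0 were called by limma, with 5 lower and 7 higher at an unadjusted p under 0.05, and a median of -0.02 log2. Over all genes 4.15% were lower and 4.08% higher at that level, and the lists below are read against the same shares. Among other ketone body genes, 4 were tested and 1 had an unadjusted p under 0.05. This was Aacs, which activates acetoacetate in the cytosol for lipid synthesis. It was at 8.21, 8.36 and 8.62 in the knockout pools against 9.10, 9.50 and 9.20 in the wild-type pools, all knockout pools being lower, a difference of -0.87 ± 0.14 (adjusted p = 0.0948). Oxct1, the enzyme that reopens ketone body use outside liver, was at 0.34 ± 0.24, and Bdh2 at -0.19 ± 0.21.

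Among 20 tested PPARα targets and partners, 7 were higher and 13 lower, and 2, both higher, had an unadjusted p under 0.05. Cyp4a14, the fatty acid ω-hydroxylase, was at 6.24, 8.76 and 10.86 in the knockout against 4.996, 4.52 and 5.34 in the wild type. All knockout pools were higher but spread widely, and the difference was 3.67 ± 0.93 (adjusted p = 0.391). It passed when knockout pool 1 was left out, the single gene of these groups to pass in any setting. Ppargc1a, a coactivator of PPARα, was at 0.79 ± 0.24 with overlapping groups, and Esrra, a receptor of mitochondrial genes, at -0.26 ± 0.13.

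Of 14 peroxisomal β-oxidation genes tested, 3 had an unadjusted p under 0.05, all higher. Abcd2, a transporter of very long acyl-CoA, was at 5.50, 7.03 and 5.43 in the knockout against 3.86, 3.70 and 2.98 in the wild type, a difference of 2.47 ± 0.44 (adjusted p = 0.132) in a dim probe set. Ehhadh, the bifunctional enzyme of peroxisomes, was at 10.87, 10.83 and 10.93 in the knockout against 10.66, 10.60 and 10.44 in the wild type, a difference of 0.31 ± 0.09 (adjusted p = 0.439). Crot, which makes carnitine esters for export from peroxisomes, was at 0.14 ± 0.06, also with separated groups.

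Of 15 genes that break down branched-chain and odd-chain acyl groups, 8 were higher and 7 lower, and 0 had an unadjusted p under 0.05. Those with the smallest p were Dld at 0.17 ± 0.09, Dbt at 0.19 ± 0.13 and Mccc1 at -0.15 ± 0.14. Of 20 other acyl-CoA and malonyl-CoA genes, 4 lower and 2 higher had an unadjusted p under 0.05. Acsm1 and Acsm5, mitochondrial medium-chain acyl-CoA synthetases, were at -0.44 ± 0.09 (adjusted p = 0.210) and -0.46 ± 0.14, and the thioesterase gene Acot1 at 0.52 ± 0.16, each with separated groups. The others at that level were Acad9, given above, Acot2 at 0.55 ± 0.21 and Prkaa1 at -0.33 ± 0.14.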

How the data were processed

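Liver RNA of 6 pools was hybridised, biotin-labelled, to 1-colour arrays. The deposited values are linear probe set intensities, from 0.0174 to 16555. The authors used GCOS 1.4, per the submitters' processing notes. How signals were computed, scaled or filtered is not given in the sources used here. Trimmed mean intensity per array ran from 92.7 to 132, and the number of arrays limits the precision. Symbols came from the platform annotation, updated by Entrez identifier through a RefSeq table of GRCm38.p6. Without controls, 34945 probe sets had 1 gene, 932 several and 9160 none.

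Values were taken as log2(intensity + 5.26), the 25th percentile as pseudocount, and quantile normalized. A difference on this scale understates the change of dim probe sets. After dropping 64 control probe sets, those at or above the median mean were tested with limma 3.58.1 in R 4.3.3 (lmFit, and eBayes with a trend in intensity). P-values were adjusted by Benjamini-Hochberg over 22519 probe sets, with a threshold of 0.05. A gene took its brightest tested probe set. The procedure was tested on simulated data.

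The members and lists were chosen with earlier results of these data known. Named with full values were members with an unadjusted p under 0.05, the largest difference each way, the smallest p of each role, and Cpt1a, Cpt2, Acadvl, Acadm, Hadha, Bdh1, Acat1 and Ppara; of each other list, up to 3 genes with the smallest p. Acadl, Ivd, Hadhb, Etfa, Etfdh, Acad9, Angptl4, Lpin1, Pdk4, Amacr, Acot2, Prkaa1 and the dimmer probe sets were picked after their values were seen. Alternatives were each pool left out, the replicate number as a block, median centring, the mean of probe sets, weighted arrays, no trend in intensity, pseudocounts of 1.31 and 21.0, and testing all probe sets or those above the 70th percentile. Preferring probe sets without the x_at suffix, leaving out both pools 3, and counting members with separated groups under each alternative, were added after seeing the data.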

Additional observations from a re-analysis of the deposited data

How the results depend on the processing

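The absence of called members did not depend on the processing: 0 of 30 passed in all 17 other fits, where the lowest adjusted p was 0.284, or by any tested probe set of the main comparison, where it was 0.279. Directions near 0 did depend on it. Of the 30 genes, 16 kept their sign in all 17 and 14 did not, Hadha, Acadvl, Acadl, Decr1, Etfa, Etfb, Etfdh, Ivd and Ppara being among the 16.

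With median centring 16 members were lower in place of 9, and the member median was -0.0088 in place of 0.04. An unadjusted p under 0.05 was reached by 0 members in place of 3, and by 7.84% of all genes in place of 8.23%. Members higher with separated groups were 3 in place of 6, and the share of all genes separated in that fit was not computed. The signs of Cpt1a (-0.019), Slc25a20 (-0.013), Mlycd (-0.012), Acads (-0.052), Acad8 (-0.0052), Eci2 (-0.051) and Bdh1 (-0.031) turned. With the mean of probe sets 14 members were lower, and Cpt1a (-0.043), Cpt2 (-0.18), Slc25a20 (-0.025), Acad8 (-0.14) and Bdh1 (-0.029) turned. With array weights Cpt1a (-0.0084), Bdh1 (-0.0070) and Hadhb (0.0063) turned, and with probe sets lacking the x_at suffix Hadhb (0.23) did. Without the intensity trend 1 member, Hadha, had an unadjusted p under 0.05, as did 6.97% of all genes. Over the array 18 probe sets and 9 genes passed, where 32 and 16 did in the main comparison. Probe sets passing were 20 with no filter and 19 with a filter at the 70th percentile. Without both pools 3, 15 members were lower, 1 had an unadjusted p under 0.05, as did 9.85% of all genes, and 26 genes passed over the array. In that fit Cpt1a (-0.0032), Slc25a20 (-0.12), Mlycd (-0.082), Acadm (0.016), Acads (-0.0036), Acad10 (-0.019), Eci2 (-0.15) and Bdh1 (-0.15) turned. The causes were not tested.

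Leaving out each pool gave 7 to 14 members lower and a member median of 0.021 to 0.091. An unadjusted p under 0.05 was reached by 1 to 6 members. There was 1 without knockout pool 1, where 8.11% of all genes reached it. There were 6 without knockout pool 2, where 5.86% did. Separated groups were found for 6 to 10 members on the higher side (10 without knockout pool 2 or wild-type pool 2). On the lower side they were found for 0 to 3 (3 without wild-type pool 3). Groups of fewer pools separate more easily, and the share of all genes separated in these fits was not computed. Over the array 18 to 29 probe sets passed, and 0 to 1 of the neighbouring genes. Signs turned for Fabp1 (-0.011 to 0.064), Cpt1a (-0.043 to 0.11), Slc25a20 (-0.084 to 0.14), Mlycd (-0.073 to 0.14), Acadm (-0.089 to 0.075), Acads (-0.023 to 0.087), Acad8 (-0.0094 to 0.15), Acad11 (-0.12 to 0.00045), Hadhb (-0.10 to 0.080), Eci2 (-0.21 to 0.21), Bdh1 (-0.079 to 0.10) and Acat1 (-0.11 to 0.032).

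The labels give both genotypes pools 1 to 3. Deviations of same-numbered pools correlated at 0.129, 0.0451 and 0.248. Knockout pool 3 correlated at -0.195 and -0.0993 with wild-type pools 1 and 2. Wild-type pool 3 correlated at -0.171 and -0.124 with knockout pools 1 and 2. Deviations were taken from the mean of each genotype and cancel within it. The negative values are therefore tied to the 0.248 of the pools 3 and are not separate evidence of a likeness. Knockout pool 2 correlated best with wild-type pool 1, at 0.101. The labels do not say whether pools were paired, and the numbers were not taken as pairs. With the replicate number as a block 9 members were lower and 4 had an unadjusted p under 0.05, as did 9.67% of all genes. Of the members 0 passed, and 20 genes passed over the array.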
